A study of Homo sapiens with 18 samples.

Results

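The CpGs described here lie in intergenic DNA, more than 10 kb from every gene annotated on GRCh37. They were taken from chromosomes 1 to 20, and each had at least 20 reads in all 3 RRBS libraries. RRBS, reduced representation bisulfite sequencing, reads the methylated share of single CpGs in DNA cut at the sequence CCGG. With this rule 68527 CpGs were found among 946029 with the same coverage, which is 7.24%. The other 877502 CpGs lay inside a gene or within 10 kb of one. The rule uses position and coverage, not the methylation level.

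In normal human cells most intergenic CpGs are methylated. Cancer cells often lose this methylation over long, gene-poor stretches known as partially methylated domains, while CpG-dense islands, which are normally free of methylation, may gain it. Because methyl binding domain (MBD) proteins bind methylated CpGs best where several lie close together, the sparse CpGs of intergenic DNA are hard targets for MBD-based capture.

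Genomic DNA came from 3 established human cancer cell lines, HCT15 (colorectal carcinoma), DU145 and PC3 (both prostate cancer), cultured without any treatment named in the labels. Each line gave 1 RRBS library and 5 MBD-seq libraries, 1 per commercial kit, namely MethylMagnet and MethylCollector (MBD2b), MethylCollector Ultra (MBD2b with MBD3L1), MethylMiner (MBD2) and MethylCap. No library was repeated. Each kit is thus replicated only across the 3 lines, and a difference between lines is a difference between libraries. The labels name ATCC as the source of all lines, whereas the methods of the study name another supplier for DU145. No normal tissue was measured, and a loss of methylation in a line is always meant relative to the other lines.

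The 3 RRBS libraries put a median of 31, 60 and 43 reads (HCT15, DU145, PC3) on the intergenic CpGs. The MBD-seq depth summed over them ran from 498 in the MethylMagnet library of DU145 to 119094 in the MethylCap library of HCT15. The cell line of each MBD-seq library was checked at intergenic CpGs at least 80% methylated in 1 line and at most 20% in both others, of which there were 333 for DU145, 307 for HCT15 and 46 for PC3. In 9 of 15 libraries the named line had the highest mean depth at its own CpGs, with summed depths there of only 2 in the PC3 library of MethylCollector and 20 in that of MethylCap. This was not so for the 3 MethylMiner libraries nor for the DU145 libraries of MethylMagnet, MethylCollector and MethylCollector Ultra. Those 3 DU145 libraries had summed depths of only 3, 6 and 3 over the CpGs of DU145 and 13, 7 and 10 over those of HCT15. The sets of CpGs were not matched for CpG density. Those of HCT15 had a median of 21 CpGs within 201 bp, and 53.4% of them had 20 or more. At such density MethylMagnet, MethylCollector and MethylCollector Ultra had 4.48 to 10.9 times their mean depth over intergenic CpGs at least 80% methylated. For these kits a highest depth at the CpGs of HCT15 thus cannot decide the line of a library. Shares between kits are therefore also given without MethylMiner and without DU145. Those within classes of CpG density, or with only CpGs at least 80% methylated, were not computed with these left out.

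The intergenic CpGs were sparse. A window of 201 bp around each held a median of 8 CpGs, against 14 for the other CpGs, and 64.3% of them had fewer than 10 CpGs in that window. CpG-dense surroundings of 20 or more CpGs were found for 5.82% of them and for 33.5% of the other CpGs. Their mean GC content was 56.8%, against 64.6%, and 33.8% lay in a CCGG site itself. The median distance to the nearest gene was 22744 bp and the largest 535264 bp. Chained where neighbours lay at most 200 bp apart, they formed 21555 clusters, of which 6324 were single CpGs and the largest held 74. Neighbouring CpGs share reads, and members of a cluster are thus not independent.

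Reference sequence around the centre of 5 clusters shows what such DNA looks like where methylation was absent in all lines or differed most between them. Each run has 200 bases of the forward strand of GRCh37, 5′ to 3′, with every CpG in capitals.

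Lowest in all lines, chr18:45534814-45535013: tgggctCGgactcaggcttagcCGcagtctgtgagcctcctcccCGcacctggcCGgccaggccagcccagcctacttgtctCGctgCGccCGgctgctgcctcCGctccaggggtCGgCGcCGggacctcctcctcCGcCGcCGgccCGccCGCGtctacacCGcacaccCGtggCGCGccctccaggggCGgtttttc
Gain in HCT15, chr6:91320819-91321018: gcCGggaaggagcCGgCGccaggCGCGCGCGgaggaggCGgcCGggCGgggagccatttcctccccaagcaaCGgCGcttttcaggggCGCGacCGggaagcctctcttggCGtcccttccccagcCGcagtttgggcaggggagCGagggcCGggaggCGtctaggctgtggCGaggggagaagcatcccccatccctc
Loss in DU145, chr19:42444992-42445191: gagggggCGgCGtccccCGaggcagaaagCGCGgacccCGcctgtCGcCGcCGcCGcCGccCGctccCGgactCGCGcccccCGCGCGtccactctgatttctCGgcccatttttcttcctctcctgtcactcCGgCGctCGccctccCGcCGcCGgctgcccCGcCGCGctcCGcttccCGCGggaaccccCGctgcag
Gain in DU145, chr7:65508925-65509124: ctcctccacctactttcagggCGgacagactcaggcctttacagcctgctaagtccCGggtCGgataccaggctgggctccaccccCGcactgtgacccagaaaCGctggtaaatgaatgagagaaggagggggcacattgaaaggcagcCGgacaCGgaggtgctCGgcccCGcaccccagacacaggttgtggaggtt
Loss in PC3, chr4:184667813-184668012: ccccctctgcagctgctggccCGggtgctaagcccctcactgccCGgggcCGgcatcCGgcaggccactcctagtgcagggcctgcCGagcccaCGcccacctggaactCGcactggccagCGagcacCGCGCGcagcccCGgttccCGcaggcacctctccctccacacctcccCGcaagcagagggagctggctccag

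The number of CpGs in these runs ranged from 9 (gain in DU145) to 32 (loss in DU145).

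The level of the intergenic CpGs was highest in DU145 and lowest in PC3. The mean methylation level, the share of methylated reads averaged over the 68527 CpGs, was 73.8% ± 28.9 (SD over CpGs) in HCT15, 80.6% ± 27.3 in DU145 and 64.7% ± 32.2 in PC3. The medians were 86.1%, 94.7% and 73.1% in the same order. Levels of at least 80% were reached by 57.4% of the CpGs in HCT15 (95% Wilson interval 57.1 to 57.8), by 69.0% in DU145 (68.7 to 69.4) and by 43.7% in PC3 (43.3 to 44.1). These intervals cover counting error only. In PC3 41.4% of the CpGs had an intermediate level between 20 and 80%, compared with 33.9% in HCT15 and 24.0% in DU145. Levels of at most 20% were found for 8.64%, 6.94% and 14.9% of the CpGs in HCT15, DU145 and PC3. Among the other CpGs these unmethylated shares were 30.3%, 33.0% and 35.2%, so that the peak near 0% that marks CpG islands was small away from genes.

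**Figure D1:**
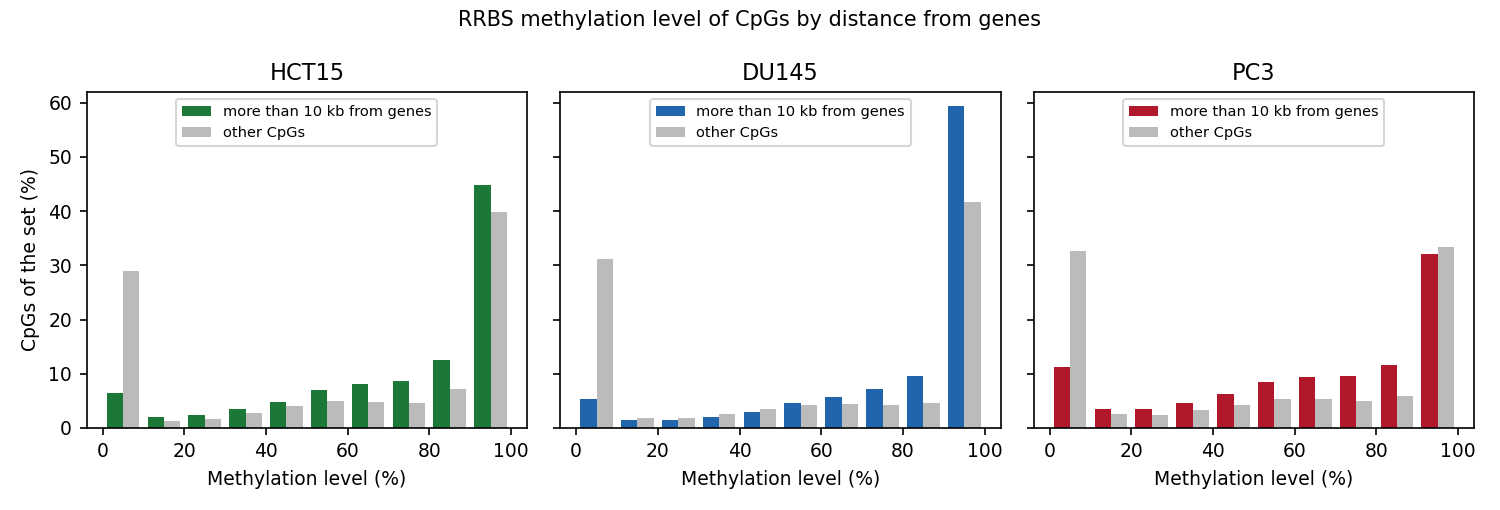
Share of CpGs (y axis, percent of the set) by RRBS methylation level in steps of 10 percentage points (x axis) in each cell line, with CpGs more than 10 kb from genes in colour and the other CpGs in grey. The coloured bars have a small peak near 0% and, in PC3, more CpGs at intermediate levels.

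The mean level of the intergenic CpGs was higher than that of the other CpGs in all 3 lines, by 16.1 percentage points in HCT15, 24.0 in DU145 and 12.5 in PC3 (mean 17.6 ± 5.84, SD over lines, n = 3, two-sided exact permutation test by sign flips, p = 0.25, which is the smallest p that 3 lines allow). This difference followed local CpG density and changed sign with it. At 1 to 4 CpGs per 201 bp the intergenic CpGs were lower, with a mean difference over the lines of -8.28 ± 3.16 points (SD), and at 5 to 9 CpGs likewise, with -6.00 ± 4.67 points, in 3 of 3 lines each. At 10 to 14 CpGs they were higher by 6.28 ± 4.94 points, at 15 to 19 CpGs by 24.3 ± 3.95 points and at 20 or more CpGs by 20.8 ± 3.22 points, again in 3 of 3 lines. Weighted over the same density classes, the difference was 1.09 points in HCT15, 3.90 in DU145 and -4.44 in PC3 (mean 0.18, exact permutation test, n = 3, p = 1).

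The order of the lines differed between CpG-dense and CpG-sparse intergenic DNA. With 20 or more CpGs nearby, the 3991 members had means of 55.3% in HCT15, 43.2% in DU145 and 40.3% in PC3, where the other CpGs of that density had 31.3%, 22.5% and 22.7%. DU145, the line with the highest level over all members, was thus below HCT15 in this class. In the sparsest class, with 11579 members, the means were 70.7%, 81.6% and 64.5%, against 78.5%, 87.0% and 76.2% for the other CpGs. The difference was largest in PC3, with -11.7 points, against -7.76 in HCT15 and -5.41 in DU145.

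**Figure D2:**
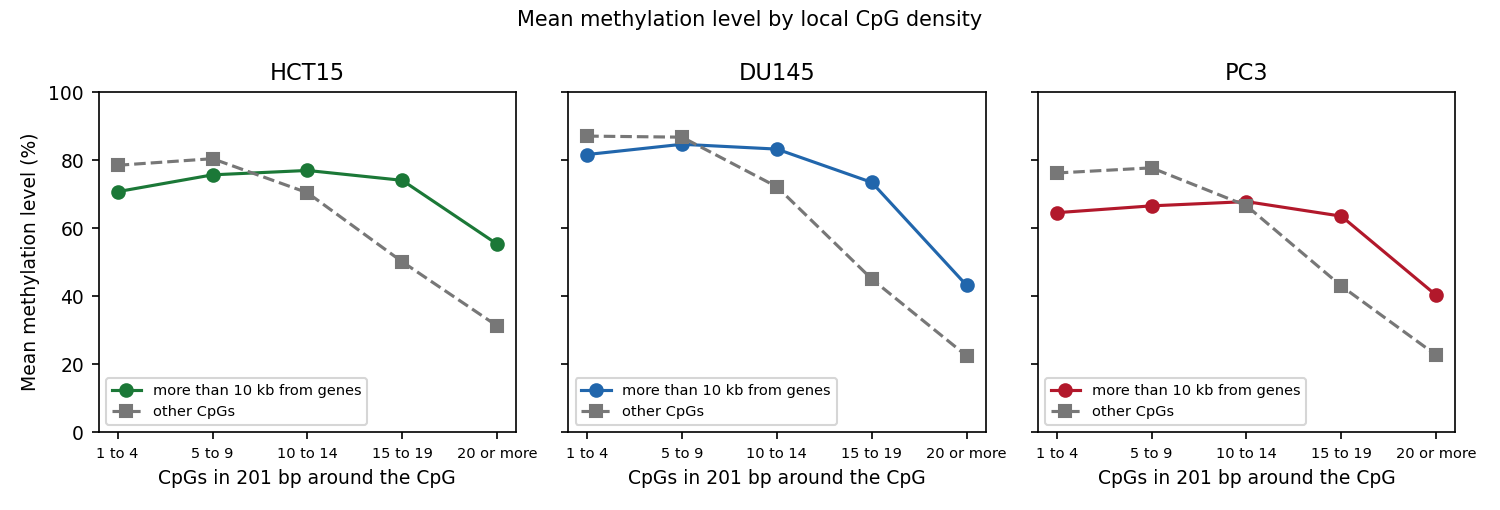
Mean RRBS methylation level (y axis, percent) by number of CpGs within 201 bp (x axis) in each cell line, with solid lines for CpGs more than 10 kb from genes and dashed lines for the other CpGs. The solid line lies below the dashed one at 1 to 9 CpGs and above it from 10 CpGs on in all 3 panels.

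Distance from genes was followed by a further decrease. From 10 to 20 kb to beyond 100 kb, the mean level went from 75.1% to 68.4% in HCT15, from 80.8% to 78.7% in DU145 and from 67.2% to 59.2% in PC3, over 29306 and 4115 CpGs. For CpGs with fewer than 10 CpGs nearby, the PC3 level went from 70.1% (SD 29.0) to 55.0% (SD 31.7), the HCT15 level from 77.2% to 64.9% and the DU145 level from 85.9% to 76.3%. The steps were monotonic in all 3 lines for this sparse class. There was no break at the limit of 10 kb. The 8461 CpGs at 10 to 12 kb had means of 75.8%, 80.1% and 67.4% in HCT15, DU145 and PC3, and the 9755 CpGs at 8 to 10 kb, just outside the rule, had 76.3%, 81.5% and 68.8%. Per chromosome, DU145 was highest and PC3 lowest on 20 of 20 chromosomes. PC3 ranged from 53.7% on chromosome 16 to 73.0% on chromosome 3, DU145 from 76.2% on chromosome 12 to 84.8% on chromosome 3 and HCT15 from 68.8% on chromosome 16 to 79.2% on chromosome 6.

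The most frequent combination of levels across lines, at least 80% in all 3, was found for 34.4% of the intergenic CpGs and 31.8% of the other CpGs. The second most frequent pattern was at least 80% in HCT15 and DU145 with an intermediate level in PC3, held by 14.9% of the intergenic and 5.85% of the other CpGs. Intermediate levels in HCT15 and PC3 with at least 80% in DU145 took 9.92%, against 3.43%. Levels of at most 20% in all lines were held by 4.46% of the intergenic CpGs, against 27.1% of the other CpGs. These 3056 constantly unmethylated CpGs had a median of 17 CpGs in 201 bp, and 40.6% of them had 20 or more. A further 307 CpGs were methylated in HCT15 and unmethylated in both prostate lines, with a median of 21 CpGs nearby.

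Each CpG was also compared between libraries with Fisher's exact test on methylated and unmethylated reads, adjusted (Benjamini-Hochberg) over all 946029 CpGs. A CpG was called at an adjusted p under 0.05 and a difference of at least 20 percentage points. PC3 was called lower than DU145 at 21187 intergenic CpGs (30.9%), where 13.7% of all CpGs were called in that direction, and higher at 2378 (3.47%), where the share of all CpGs was 4.56%. PC3 was called lower than HCT15 at 13616 members (19.9%, against 13.7% of all CpGs) and higher at 3807 (5.56%, against 4.66%). DU145 was called higher than HCT15 at 11228 members (16.4%, against 8.29%) and lower at 3569 (5.21%, against 9.23%). Away from genes the calls between DU145 and each of the other lines thus went mostly towards more methylation in DU145. The same direction was seen among other CpGs with fewer than 10 CpGs nearby. DU145 was called higher than HCT15 at 13.6% of those and lower at 2.93%, against 18.9% and 3.23% of the members of that density. With 10 or more CpGs nearby, higher and lower calls were 11.8% and 8.77% of the members, against 4.62% and 12.9% of the other CpGs. The median difference of the members called lower in PC3 than in DU145 was -42.4 points. These tests compare 1 library with 1 library and neighbouring CpGs share reads, so the counts describe the libraries. A CpG under 20% in 1 library cannot be called lower in another. In DU145, for instance, 33.0% of the other CpGs but 6.94% of the members had at most 20%, and the shares called were not adjusted for this.

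The calls between the prostate lines were also split by CpG density. With fewer than 10 CpGs nearby, 33.7% of the intergenic CpGs were called lower in PC3 than in DU145, against 19.02% of the other CpGs of that density, and 2.77% were called higher, against 2.78%. With 10 or more CpGs nearby the lower calls were 25.8% against 9.02%. The larger share of losses in PC3 among intergenic CpGs was thus seen at both densities. With 10 or more CpGs nearby, however, fewer of the other CpGs could be called lower, because a CpG under 20% in DU145 cannot lose 20 points. At 10 to 14, 15 to 19 and 20 or more CpGs, 16.9%, 42.8% and 67.7% of the other CpGs had at most 20% in DU145. Among the members it was 5.44%, 15.5% and 45.5%. The calls were not adjusted for this.

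Methylation was then averaged over the intergenic CpGs of each 1 Mb window. Of 2345 windows with any member, 1571 held at least 10, with 64671 members between them. The window means averaged 74.8% ± 13.3 (SD over windows) in HCT15, 82.7% ± 12.5 in DU145 and 67.6% ± 17.2 in PC3. A mean under 50% was found most often in PC3, in 285 windows (18.1%), against 82 in HCT15 (5.22%) and 43 in DU145 (2.74%). With only members that had fewer than 10 CpGs nearby, which left 1201 windows with at least 10, there were 220 in PC3, 44 in HCT15 and 2 in DU145, so that low windows of DU145 were nearly absent among sparse CpGs. PC3 was the lowest line in 1124 windows (71.5%), HCT15 in 390 and DU145 in 57. The order DU145, HCT15, PC3 from high to low held in 994 windows (63.3%).

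Loss by megabase was mainly seen in PC3. PC3 lay at least 20 points below the mean of both other lines in 359 windows and at least 30 points below it in 116. The corresponding numbers were 27 and 5 for HCT15 and 4 and 1 for DU145. In the opposite direction, DU145 lay at least 20 points above the mean of both others in 276 windows, HCT15 in 31 and PC3 in 10, and the mean with which PC3 is compared includes DU145. In 27 windows all 3 lines were under 50%, and in 214 windows PC3 alone was. Window means were correlated between lines, with Pearson's r of 0.76 between HCT15 and DU145, 0.66 between HCT15 and PC3 and 0.62 between DU145 and PC3, over 1571 windows that share base composition and RRBS fragments.

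**Figure D3:**
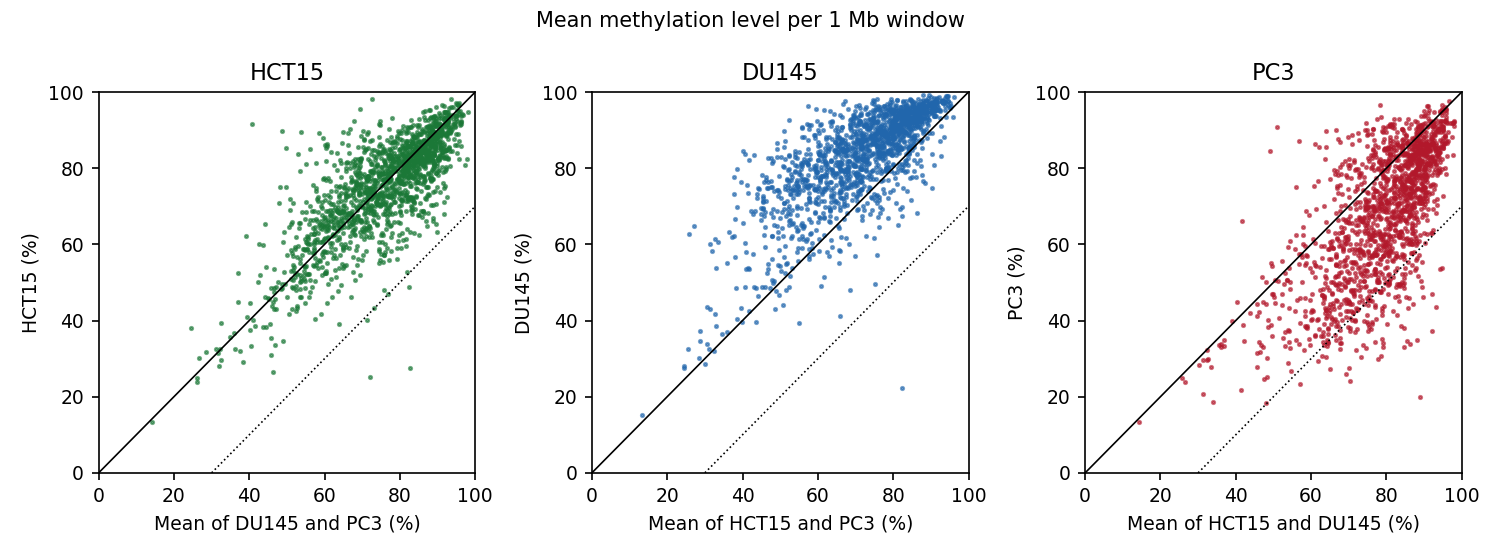
Mean methylation level of the intergenic CpGs per 1 Mb window (1571 windows with at least 10 members) in 1 line (y axis, percent) against the mean of both other lines (x axis, percent), with a solid line at equality and a dotted line 30 points below. In PC3 116 windows lie at or below the dotted line, in HCT15 5 and in DU145 1.

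Low windows lay side by side most often in PC3, the line that also had the most of them. Of the 285 low windows in PC3, 118 had a low neighbour, compared with 12 of 82 in HCT15 and 0 of 43 in DU145. Low neighbours become more frequent with the number of low windows, and no expected number was derived. The levels of adjacent windows had a Pearson's r of 0.36 in PC3, 0.15 in HCT15 and 0.09 in DU145, over 1038 adjacent pairs, as a description. PC3 had 13 runs of 3 or more low windows in a row, and the other lines had 0. The longest were of 6 windows each, at chr12:126000001-132000000 and chr16:75000001-81000000. Over the 314 members of the run on chromosome 12 the means were 62.2% in HCT15, 76.8% in DU145 and 43.8% in PC3. Over the 136 members of the run on chromosome 16 they were 61.4%, 72.9% and 39.5%. A run of 4 windows at chr5:2000001-6000000 held 632 members, with means of 67.7%, 75.5% and 46.3%. Genes covered 30.9% of this run, but 61.6% of the run on chromosome 12 and 69.6% of that on chromosome 16.

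Windows with fewer genes had lower levels. In the 393 windows with the smallest share covered by genes (at most 42.1%), 270 of which entered this average, sparse intergenic CpGs averaged 67.4% in HCT15, 78.1% in DU145 and 59.5% in PC3. In the 392 with the largest share (at least 72.7%), 304 of which entered, they averaged 78.7%, 87.5% and 72.9%. Levels also differed within windows. In 1099 windows that held at least 10 sparse CpGs of both kinds, the mean difference of intergenic minus other CpGs was -6.44 ± 12.3 points in PC3 (SD over windows), -3.02 ± 10.9 in HCT15 and -0.50 ± 9.24 in DU145. They were the lower set in 69.4%, 59.1% and 47.5% of these windows. In DU145 the windows were thus close to evenly split.

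Among the 992 windows with at least 20 members, those at the extremes are described next. They were picked by the levels given, which are therefore a description, with SDs over CpGs. The largest loss in PC3 was at chr16:55000001-56000000, where 41 members had means of 89.3% ± 15.1 in HCT15, 83.2% ± 15.8 in DU145 and 33.7% ± 28.5 in PC3. The window contains the genes MMP2, a matrix metalloproteinase, IRX6, an Iroquois homeobox factor, and CES1, a carboxylesterase. The next were chr11:97000001-98000000 (85.2%, 85.8% and 34.7% in HCT15, DU145 and PC3) and chr2:104000001-105000000 (71.4%, 85.6% and 30.7%), neither of which overlaps a protein-coding gene. None of these 3 windows had a member with 20 or more CpGs nearby.

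The windows with the largest losses in DU145 differed in CpG density. At chr19:42000001-43000000 the 37 members averaged 22.3% ± 30.4 in DU145, against 89.9% ± 14.3 in HCT15 and 74.9% ± 31.2 in PC3, and 89.2% of them had 20 or more CpGs nearby. At chr12:95000001-96000000 the means were 91.6%, 41.1% and 40.3%, so that both prostate lines were low, and 51.9% of the members had 20 or more CpGs nearby. At chr7:127000001-128000000 they were 85.2%, 47.9% and 51.7%, with 11.5% of such members. There the loss in DU145 of 20.6 points was 4.70 points with reads pooled and 12.0 points with at least 10 reads per CpG. In HCT15 the largest loss was at chr7:113000001-114000000, the window of FOXP2, a forkhead transcription factor, with 25.2% ± 36.1 in HCT15, 83.4% ± 31.8 in DU145 and 60.9% ± 28.4 in PC3 over 23 members in 3 clusters. The others were chr8:116000001-117000000, the window of TRPS1, a GATA-type zinc finger repressor (46.9%, 66.8% and 87.1%), and chr7:47000001-48000000 (52.9%, 86.2% and 77.7%).

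The lowest window by the mean of the 3 lines was chr5:36000001-37000000, which contains NIPBL, the cohesin loader, and SKP2, a subunit of a ubiquitin ligase. Its 48 members averaged 24.8% in HCT15, 28.1% in DU145 and 23.9% in PC3. They had a mean of 11.8 CpGs nearby. It was followed by chr2:73000001-74000000 (30.1%, 32.4% and 20.8%) and chr11:10000001-11000000 (28.0%, 34.6% and 29.6%), in which 46.0% and 65.0% of the members had 20 or more CpGs nearby. The highest was chr12:123000001-124000000, with 93.8%, 97.2% and 96.1% over 51 members in a window that genes cover to 81.0%. Next came chr9:3000001-4000000 with 94.9%, 96.6% and 94.4%, and chr5:148000001-149000000 with 92.2%, 97.2% and 95.4%. In these 3 windows the mean of the other lines minus PC3 was -0.62, 1.39 and -0.69 points.

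At the scale of clusters, 1187 clusters had at least 8 members and together 14997. PC3 lay at least 40 points below the mean of the other lines in 92 clusters and above it by as much in 8. In HCT15 the balance was the opposite, with 10 clusters lower and 58 higher, and in DU145 25 were lower and 30 higher. Clusters at or below 20% numbered 134 in HCT15, 136 in DU145 and 154 in PC3.

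The clusters whose sequences are shown above were picked by these levels and are again a description. The lowest cluster, 8 CpGs at chr18:45534820-45535006, had 0.78% ± 1.45 in HCT15, 0.31% ± 0.87 in DU145 and 1.96% ± 2.33 in PC3. It lies 77.3 kb from SMAD2, which relays TGF-beta signals, and 18.0 kb from ZBTB7C, a zinc finger gene. The next lowest, chr2:232527169-232527259 and chr9:138304560-138304651, had 5.90%, 5.89% and 7.00%, and 6.12%, 8.23% and 7.50%, in HCT15, DU145 and PC3.

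The largest cluster loss in PC3, 9 CpGs at chr4:184667870-184667954 between 2 long non-coding RNA genes, had 96.0% ± 3.46 in HCT15, 98.5% ± 2.27 in DU145 and 13.4% ± 22.7 in PC3. The next, 22 CpGs at chr8:49782694-49783082, had 90.8%, 89.1% and 13.7%. Among the gains in PC3, 8 CpGs at chr6:35149972-35150302 between TCP11 and SCUBE3 had 14.7%, 43.4% and 94.5%.

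Among the losses in HCT15, 8 CpGs at chr11:9372777-9372981, between TMEM41B and the nuclear import gene IPO7, had 30.1%, 95.7% and 93.2%. HCT15 gained most at 10 CpGs of chr6:91320865-91320972, 24.1 kb from MAP3K7, a kinase of TGF-beta and cytokine signalling, with 97.7% ± 2.23 against 25.4% in DU145 and 11.2% in PC3. At 25 CpGs of chr16:89323660-89324034, between ZNF778 and ANKRD11, the levels were 89.4%, 10.5% and 11.0%.

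DU145 lost most at 31 CpGs of chr19:42444983-42445200, between ARHGEF1, a guanine nucleotide exchange factor, and RABAC1. The levels were 94.7% ± 7.60 in HCT15, 13.5% ± 20.2 in DU145 and 76.5% ± 30.8 in PC3. This cluster held 31 of the 37 members of the window with the largest DU145 loss. At 16 CpGs of chr13:29106664-29106785 the levels were 98.2%, 24.5% and 78.3%. DU145 gained most at 13 CpGs of chr7:65508885-65509164, with 90.6% ± 10.4 in DU145, against 14.5% ± 22.9 in HCT15 and 24.3% ± 21.3 in PC3, and at 9 CpGs of chr12:115889616-115889688, with 11.3%, 77.7% and 18.9%.

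The MBD-seq kits reached the intergenic CpGs to very different extents. A CpG counted as covered where at least 1 fragment lay over it. MethylCap covered 63.8%, 26.5% and 26.1% of the members in HCT15, DU145 and PC3, and MethylMiner 56.4%, 33.4% and 28.3%. MethylCollector Ultra covered 25.4%, 1.98% and 20.1%, MethylCollector 14.6%, 2.25% and 5.67%, and MethylMagnet 3.79%, 0.71% and 7.07%. The mean depth over the members was 1.74, 0.42 and 0.40 for MethylCap and 0.97, 0.52 and 0.42 for MethylMiner, against 0.05, 0.01 and 0.12 for MethylMagnet. Because depth differed widely between libraries, kits were compared by ratios within each library.

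The mean depth over the intergenic CpGs was divided by that over the other CpGs of the same library. The ratio was 0.398 in HCT15, 0.463 in DU145 and 0.448 in PC3 for MethylMagnet (mean 0.436 ± 0.034, SD over lines, n = 3). It was 0.571, 0.702 and 0.609 for MethylCollector and 0.720, 0.770 and 0.760 for MethylCollector Ultra. MethylMiner had 0.865, 0.902 and 0.813, and MethylCap 0.995, 1.30 and 0.961. MethylMagnet was lowest and MethylCap highest in 3 of 3 lines, and the ranges of the 5 kits did not overlap. The top of this order turned with only CpGs at least 80% methylated in the line itself, where MethylMiner (0.840, 0.928 and 0.823) was above MethylCap (0.726, 0.884 and 0.713) in 3 of 3 lines. Kits accounted for 93.5% of the squared deviations of the log2 ratios from their mean (exact permutation test, kits permuted within lines, p = 6.94e-05, the smallest of 14400 relabellings, adjusted p = 0.000139 over 2 tests). Without MethylMiner the share was 93.3% (exact p = 0.00174 over 576 relabellings), and without DU145 98.5% (exact p = 0.00833, the smallest of 120).

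Within classes of CpG density the kits could no longer be told apart by this ratio. It then lay between 0.88 and 1.20 in all 15 libraries, with a mean over the lines of 1.03 ± 0.03 for MethylMagnet (SD, n = 3). MethylCollector had 0.96 ± 0.08, MethylCollector Ultra 0.97 ± 0.09, MethylCap 0.99 ± 0.18 and MethylMiner 0.98 ± 0.08. The share between kits was 7.70% (exact permutation test, p = 0.793). With only CpGs at least 80% methylated in the line itself, but no density classes, the share was 95.1% and the ratios ran from 0.312 for MethylMagnet in HCT15 to 0.928 for MethylMiner in DU145.

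**Figure D4:**
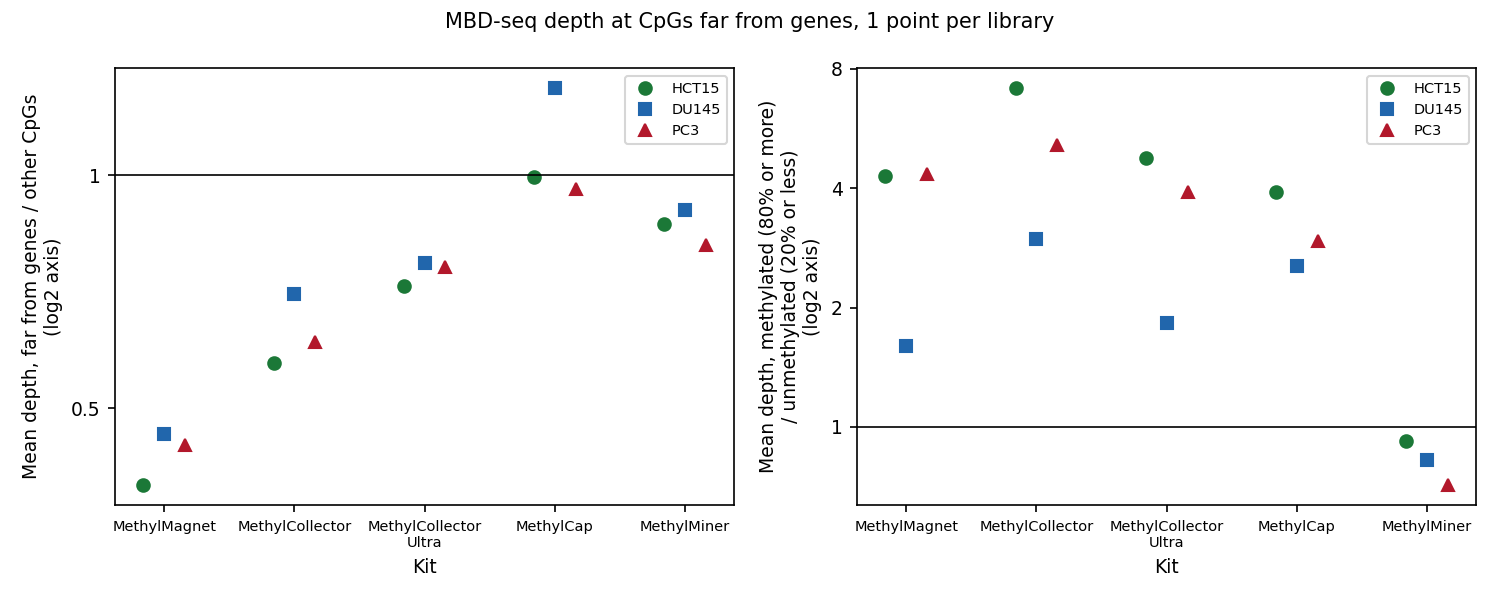
Ratio of mean MBD-seq depth (y axes, log2 scale) per kit (x axes), with 1 point per cell line, for CpGs more than 10 kb from genes against the other CpGs on the left, and for far CpGs at least 80% methylated against those at most 20% methylated on the right. On the left MethylMagnet lies lowest at 0.398 to 0.463, and on the right the MethylMiner points lie below 1, at 0.713 to 0.922, while all other points lie above 1.

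The contrast between methylated and unmethylated intergenic CpGs was measured in the same way, as the mean depth over members at least 80% methylated in the RRBS of the line divided by that over members at most 20% methylated. For HCT15, DU145 and PC3 it was 7.15, 2.97 and 5.13 with MethylCollector, 4.76, 1.83 and 3.92 with MethylCollector Ultra, 4.29, 1.60 and 4.34 with MethylMagnet, and 3.91, 2.55 and 2.95 with MethylCap. MethylMiner had 0.922, 0.825 and 0.713 and thus more depth on unmethylated than on methylated CpGs in 3 of 3 lines. DU145 gave the lowest contrast of each kit other than MethylMiner. The ratio of MethylMagnet in DU145 rested on a summed depth of 26 over unmethylated CpGs, that of MethylCollector on 49 and that of MethylCollector Ultra on 64. Kits accounted for 76.5% of the squared deviations (exact permutation test, p = 0.00486, also after adjustment over 2 tests). The call rested on MethylMiner, because without it the share was 19.5% (exact p = 0.122). It was also lost without HCT15 (76.5%, exact p = 0.1) and without PC3 (68.8%, exact p = 0.0583), while without DU145 the share was 97.1% (exact p = 0.0167).

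Within classes of CpG density more of the spread of the contrast lay between kits. The contrast was 12.9, 8.55 and 11.4 for MethylMagnet in HCT15, DU145 and PC3, 14.4, 10.5 and 9.27 for MethylCollector, 7.35, 6.20 and 5.67 for MethylCollector Ultra, 4.35, 3.89 and 3.51 for MethylCap and 0.944, 1.05 and 0.770 for MethylMiner. The ranges of MethylMagnet and MethylCollector overlapped. In DU145 the values of these kits rest on summed depths of only 26 and 49 over unmethylated CpGs, here split over the density classes. MethylMagnet and MethylCollector, the kits with the highest mean contrast over the lines, also covered the fewest intergenic CpGs on average (3.85% and 7.52%). The share between kits was 97.7% (exact permutation test, p = 0.000278). This test was not repeated without MethylMiner or without DU145. In HCT15 depth relative to the library's mean over the members was higher at each step of methylation for MethylCap, from 0.32 at 0 to 20% over 0.60, 0.67 and 0.84 to 1.26 at 80 to 100%, whereas for MethylMiner it was 1.09, 0.97, 0.96, 0.96 and 1.01. In the other lines MethylCap was not higher at each step, with 0.45, 0.73, 0.67, 0.81 and 1.14 in DU145 and 0.47, 0.80, 0.68, 0.88 and 1.38 in PC3.

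The change of depth with CpG density was read from the members at least 80% methylated, as depth relative to their mean in the library. For MethylMiner, with a contrast of 0.713 to 0.922, this depth cannot be read as capture of methylated CpGs. At 1 to 4 CpGs per 201 bp MethylMiner kept 0.83 ± 0.13 of the mean depth (SD over lines, n = 3) and MethylCap 0.38 ± 0.03, against 0.07 ± 0.04 for MethylMagnet, 0.03 ± 0.01 for MethylCollector and 0.07 ± 0.03 for MethylCollector Ultra. At 5 to 9 CpGs, the class with the most members, the values were 0.95 ± 0.04, 0.90 ± 0.03, 0.21 ± 0.13, 0.35 ± 0.04 and 0.52 ± 0.02 in the same order. At 20 or more CpGs they were 1.38 ± 0.24 for MethylMiner, 1.89 ± 0.34 for MethylCap, 10.9 ± 0.44 for MethylMagnet, 5.95 ± 0.59 for MethylCollector and 4.48 ± 1.80 for MethylCollector Ultra. The values in the sparsest class rest on summed depths as low as 3 for MethylMagnet, 5 for MethylCollector and 7 for MethylCollector Ultra. Between the sparsest and the densest class MethylCap thus varied less than the other kits with a contrast above 1.

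**Figure D5:**
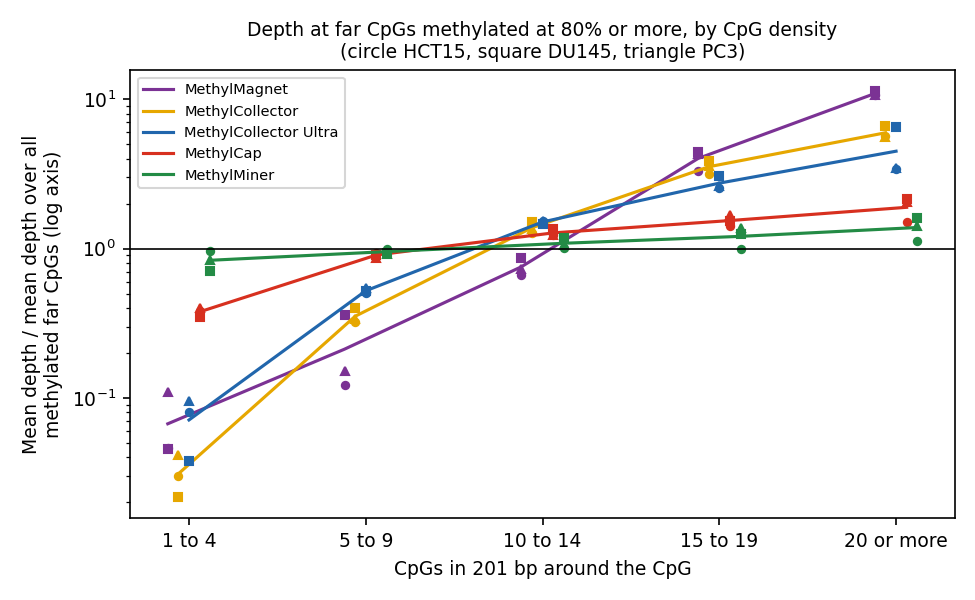
Mean MBD-seq depth at CpGs more than 10 kb from genes that were at least 80% methylated, relative to the mean over all such CpGs of the library (y axis, log scale), by number of CpGs within 201 bp (x axis). Lines are means over the 3 cell lines and points are libraries, and the lines of MethylMagnet, MethylCollector and MethylCollector Ultra are steep, from 0.03 to 0.07 at 1 to 4 CpGs to 4.48 to 10.9 at 20 or more.

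The depth of the kits was also read in the windows that lost methylation in PC3. In the 69 windows with at least 20 members in which PC3 lay 30 or more points below the other lines, RRBS gave 73.0% in HCT15, 82.2% in DU145 and 43.8% in PC3 over 4502 CpGs. The depth there, relative to the library's mean over all members, was in PC3 0.533 times the mean of the other lines with MethylMagnet, 0.426 times with MethylCollector, 0.647 times with MethylCollector Ultra and 0.638 times with MethylCap, but 1.24 times with MethylMiner. The DU145 libraries of the first 3 kits had summed depths there of only 57, 187 and 201, with relative depths of 1.74, 1.70 and 2.06. Relative depths of these 3 kits were 1.22, 1.10 and 1.61 in HCT15 and 0.789, 0.597 and 1.19 in PC3. For MethylCap the relative depths were 1.36 in HCT15, 3.04 in DU145 and 1.40 in PC3, so that PC3 was below DU145 but not below HCT15. Without CpGs of more than 20 fragments they were 1.03, 1.70 and 1.04. In the 460 windows where PC3 lay within 10 points of the other lines, PC3 had 1.45, 1.37, 1.12, 1.24 and 0.982 times their mean, in the same order of kits. MethylCap covered 18.7% of the members in the PC3 loss windows and 31.3% in the windows without a difference, while in HCT15 it covered 65.6% and 65.3%. These are 1 library per kit and line and were not tested. Part of the depth came from a few CpGs with more than 20 fragments, 26 in the PC3 library of MethylCap and 53 in that of MethylMiner.

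Single clusters rested on few fragments, and the kits did not all give the order of the lines seen by RRBS. Over the cluster gained in HCT15 on chromosome 16 the HCT15 libraries had 5.28 with MethylCollector, 3.36 with MethylCollector Ultra and 4.60 with MethylCap, and the DU145 and PC3 libraries of these kits 0. MethylMagnet had 0 in HCT15 and 0.12 in PC3 there, and MethylMiner 1.24 in HCT15 and 1.52 in DU145. Over the cluster lost in DU145 on chromosome 19 MethylCollector Ultra had 3.65 in HCT15, 0 in DU145 and 1.81 in PC3, whereas MethylCollector had 0.52 in DU145 and 0 in PC3, and MethylCap 0.77 in DU145 and 0.26 in PC3. A depth of 0 in these small libraries means only that no fragment was found. A single fragment can cover all CpGs of such a cluster.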

How the data were processed

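RRBS was done on 3 libraries and MBD-seq on 15. The RRBS values deposited by the authors are read counts at each CpG of hg19, methylated and total, summed over strands. The MBD-seq values are an unscaled signal deposited by the authors, namely how many non-duplicate, uniquely mapped fragments (Bowtie, NCBI build 37) lie over a base. The RRBS aligner is not given in the sources used here.

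Positions were matched to CpGs of GRCh37 (at least 99.9% of rows matched) and gene positions came from GENCODE 44 lifted to it. The file of PC3 ends early on chromosomes after 20, so chromosomes 1 to 20 were used. The methylation level is methylated over all reads, for CpGs with at least 20 reads. Depth was read at each CpG. Kits were tested by exact permutation within lines, with the line as the replicate block because the same number marks the same cell line in every kit. CpGs were tested by Fisher's exact test with Benjamini-Hochberg adjustment. The members, lists and regions were chosen with earlier results of these data known. The named windows are the 3 lowest, the 3 highest and the 3 with the largest loss per line among windows with at least 20 members, and the named clusters the 3 lowest and the 2 largest losses and gains per line among clusters with at least 8 members. The largest loss in HCT15 and the largest gain in PC3 among clusters are not reported here. Alternatives changed coverage, distance, window size, averaging, call rule, kits and lines. Shares have Wilson intervals, which cover counting error only. The scripts were tested on simulated data and used scipy 1.17.1, numba 0.67.0, numpy 2.4.6, matplotlib 3.10.9 and pandas 2.3.3 under Python 3.11.15.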

Additional observations from a re-analysis of the deposited data

Results flagged for a closer look

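Within classes of CpG density, the difference between intergenic and other CpGs had different signs in the lines. Intergenic CpGs were higher by 1.09 percentage points in HCT15 and by 3.90 in DU145, whereas in PC3 the difference was -4.44. With 1 RRBS library per line, the difference between the lines was not tested.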

How the results depend on the processing

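The mean level of the intergenic CpGs in HCT15, DU145 and PC3 was 74.1%, 81.3% and 65.9% with at least 10 reads per CpG, 67.4%, 72.5% and 54.4% with at least 50 reads, 69.8%, 79.3% and 59.8% beyond 50 kb, 72.8%, 77.8% and 64.2% with protein-coding genes only, and 71.0%, 76.7% and 54.6% with reads pooled. Each cluster counted once gave 82.8% in DU145 and 66.2% in PC3, and leaving out extreme coverage gave 65.0% in PC3. The order of the lines was the same in all 7 alternatives. The difference from the other CpGs was positive with all alternatives except with only CpGs that had fewer than 10 CpGs nearby (mean -6.66), an alternative added after seeing the data, and was near 0 within density classes (mean 0.18). With a minimum difference of 40 points the members called between HCT15 and DU145, HCT15 and PC3, and DU145 and PC3 were 7081, 9899 and 12648, against 14797, 17423 and 23565, and with at least 50 reads, where fewer CpGs were tested, 2600, 3397 and 3961. Low windows numbered 39, 16 and 171 (HCT15, DU145, PC3) with windows of 2 Mb. They numbered 52 in HCT15 and 185 in PC3 with at least 20 members, 68 in DU145 with reads pooled, and 44 in HCT15 and 2 in DU145 with sparse members only (added after seeing the data), against 82, 43 and 285. PC3 had the most low windows with each of these.

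The share between kits of the depth contrast by methylation fell to 19.5% without MethylMiner, and with each cell line left out it lay between 68.8% and 97.1%. That of the depth against other CpGs was 7.70% within density classes, where depth is compared between CpGs of the same class. Without the replicate block the shares were the same, 76.5% (exact permutation test, p = 0.00852) and 93.5% (p = 7.14e-07), and no call changed. For the named windows and clusters, 26 of 28 alternative values lay within 1.5 times the reported ones and 0 changed sign. The exceptions were both of the loss in DU145 at chr7:127000001-128000000, with 4.70 for reads pooled and 12.0 for at least 10 reads against 20.6 points. In other cases the cause was not tested. In every MBD-seq library except those of MethylCap and MethylMiner in HCT15, most intergenic CpGs had no fragment. This limits what single libraries can show, in particular those of DU145.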

Other observations

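A few intergenic CpGs carried a large part of the reads. The 322 members with more than 1000 reads in any RRBS library were 0.47% of the members and held 14.8% of the reads on members in HCT15, 27.0% in DU145 and 29.3% in PC3. Their mean levels were 59.1% ± 30.5 (SD over CpGs), 76.2% ± 30.5 and 37.4% ± 31.3 in HCT15, DU145 and PC3. Pooled over reads, the members without them had 72.1%, 78.2% and 61.7%. In each library the window chr10:42000001-43000000, beside the centromere, held more of them than any other window. It had 25 of the 69 such CpGs of HCT15, 109 of the 275 of DU145 and 120 of the 284 of PC3. The same window held 68 of the 80 members with more than 20 MBD-seq fragments in the MethylCap library of HCT15 and 69 of the 86 in the MethylMiner library of DU145. Over those 68 CpGs the RRBS means were 65.9% in HCT15, 79.0% in DU145 and 36.2% in PC3.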
